A study of Sus scrofa with 18 samples.

Results

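The nuclear genes of the mitochondrial respiratory chain and ATP synthase were followed in transplanted pig kidneys. Members are genes whose probe sets carry 1 gene symbol in the platform annotation that begins with NDUF, UQCR, COX4 to COX8 or ATP5, or is CYCS or CYC1. This gave 60 genes on 75 probe sets, out of 6765 named genes and 23999 probe sets, and each gene is described by its brightest probe set over the 18 arrays. They comprise 32 subunits of complex I (12 of the matrix arm and 20 of the membrane arm), 3 complex I assembly factors, 2 subunits of complex III with cytochrome c, 8 genes of complex IV and 14 of complex V. No probe set named for CYC1, UQCRC1, COX4I1 or a gene of the mitochondrial DNA was among those analysed here.

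Complex I takes electrons from NADH, complex III passes them to cytochrome c, and complex IV hands them to oxygen. These steps pump protons across the inner mitochondrial membrane, and complex V, the ATP synthase, uses the returning protons to make ATP. The kidney's proximal tubule is packed with mitochondria because salt and solute reabsorption consumes much ATP, and this part of the nephron is known to be sensitive to lost blood flow.

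Each array measured messenger RNA from 1 kidney of Sus scrofa. The groups were kidneys transplanted with carbon monoxide (CO) and sampled at 24 h, kidneys transplanted untreated and sampled at 24 h, kidneys transplanted with CO and sampled at 4 h, and kidneys transplanted untreated and sampled at 4 h, with 4 arrays each. The last group was naive kidneys, which were not transplanted and had 2 arrays. Donors 5 to 8 gave the 24 h kidneys and donors 1 to 4 the 4 h kidneys, and each donor gave 1 CO and 1 untreated kidney. Strain and age were not among the labels, and who received the gas (donor, organ or recipient) is not stated. One label of the CO arrays gives their treatment as air, but the title and source name give CO and were followed. The files of the naive arrays carry numbers that recur in those of donor 4, so these kidneys may come from the same animals. The tests do not allow for this.

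Values are log2 levels per probe set, and differences are log2 changes, each with the limma standard error (SE) where ± is given. A gene was called where its Benjamini-Hochberg adjusted p over all 23999 probe sets was under 0.05 in a limma fit of all 5 groups. "Rose" and "fell" are used of called genes only. Some counts with an array left out are given without the share of all probe sets called. There, the counts alone do not tell fewer calls among the members from fewer calls on the whole array. Donor 1's untreated 4 h array correlated more closely with the naive arrays (mean r = 0.982) than with its own group (mean r = 0.956). Counts and medians of the comparisons it touches are given with and without it. Because it was singled out for its nearness to the naive arrays, leaving it out favours a difference from naive. Values of single genes include it unless stated. In whole-kidney RNA, fewer cells of a type and less RNA per cell cannot be told apart.

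The respiratory chain genes were strongly hybridised, with 55 of the 60 above the 75th percentile and 50 above the 90th percentile of the mean level of all probe sets. The dimmest was COX8H, the heart and muscle isoform of subunit 8 of complex IV, with a mean of 3.45. It was the only member below the median of all probe sets, and the background, taken from the array's tag control probe sets, was 1.62.

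The mean level of the 60 genes was below that of naive kidneys in each transplanted group, and lowest at 4 h. The mean of all 60 relative to naive was -0.25 ± 0.20 in CO 24 h kidneys, -0.40 ± 0.12 in untreated 24 h kidneys, -0.63 ± 0.25 in CO 4 h kidneys and -0.53 ± 0.24 in untreated 4 h kidneys (SD, n = 4 each). By kidney this mean was 0.04, -0.36, -0.41 and -0.28 in CO 24 h kidneys of donors 5, 6, 7 and 8, and -0.24, -0.47, -0.39 and -0.50 in untreated 24 h kidneys of the same donors. It was -0.93, -0.50, -0.73 and -0.36 in CO 4 h kidneys of donors 1, 2, 3 and 4, and -0.31, -0.58, -0.85 and -0.39 in untreated 4 h kidneys of the same donors, against -0.02 and 0.02 in naive kidneys. The CO 24 h kidney of donor 5 was the only transplanted kidney above the naive arrays. The 2 kidneys with the lowest means were the CO 4 h kidney of donor 1 and the untreated 4 h kidney of donor 3. The mean of complex IV was an exception to the time course in untreated kidneys, at -0.60 at 24 h and -0.46 at 4 h. The median changes of its 8 genes against naive were alike, at -0.46 and -0.45. Between these times 4 of the 8 estimates were above 0 and 4 below, and that of COX7A1 was by far the lowest (-1.34). With CO the means of complex IV were -0.51 at 24 h and -0.57 at 4 h.

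**Figure D1:**
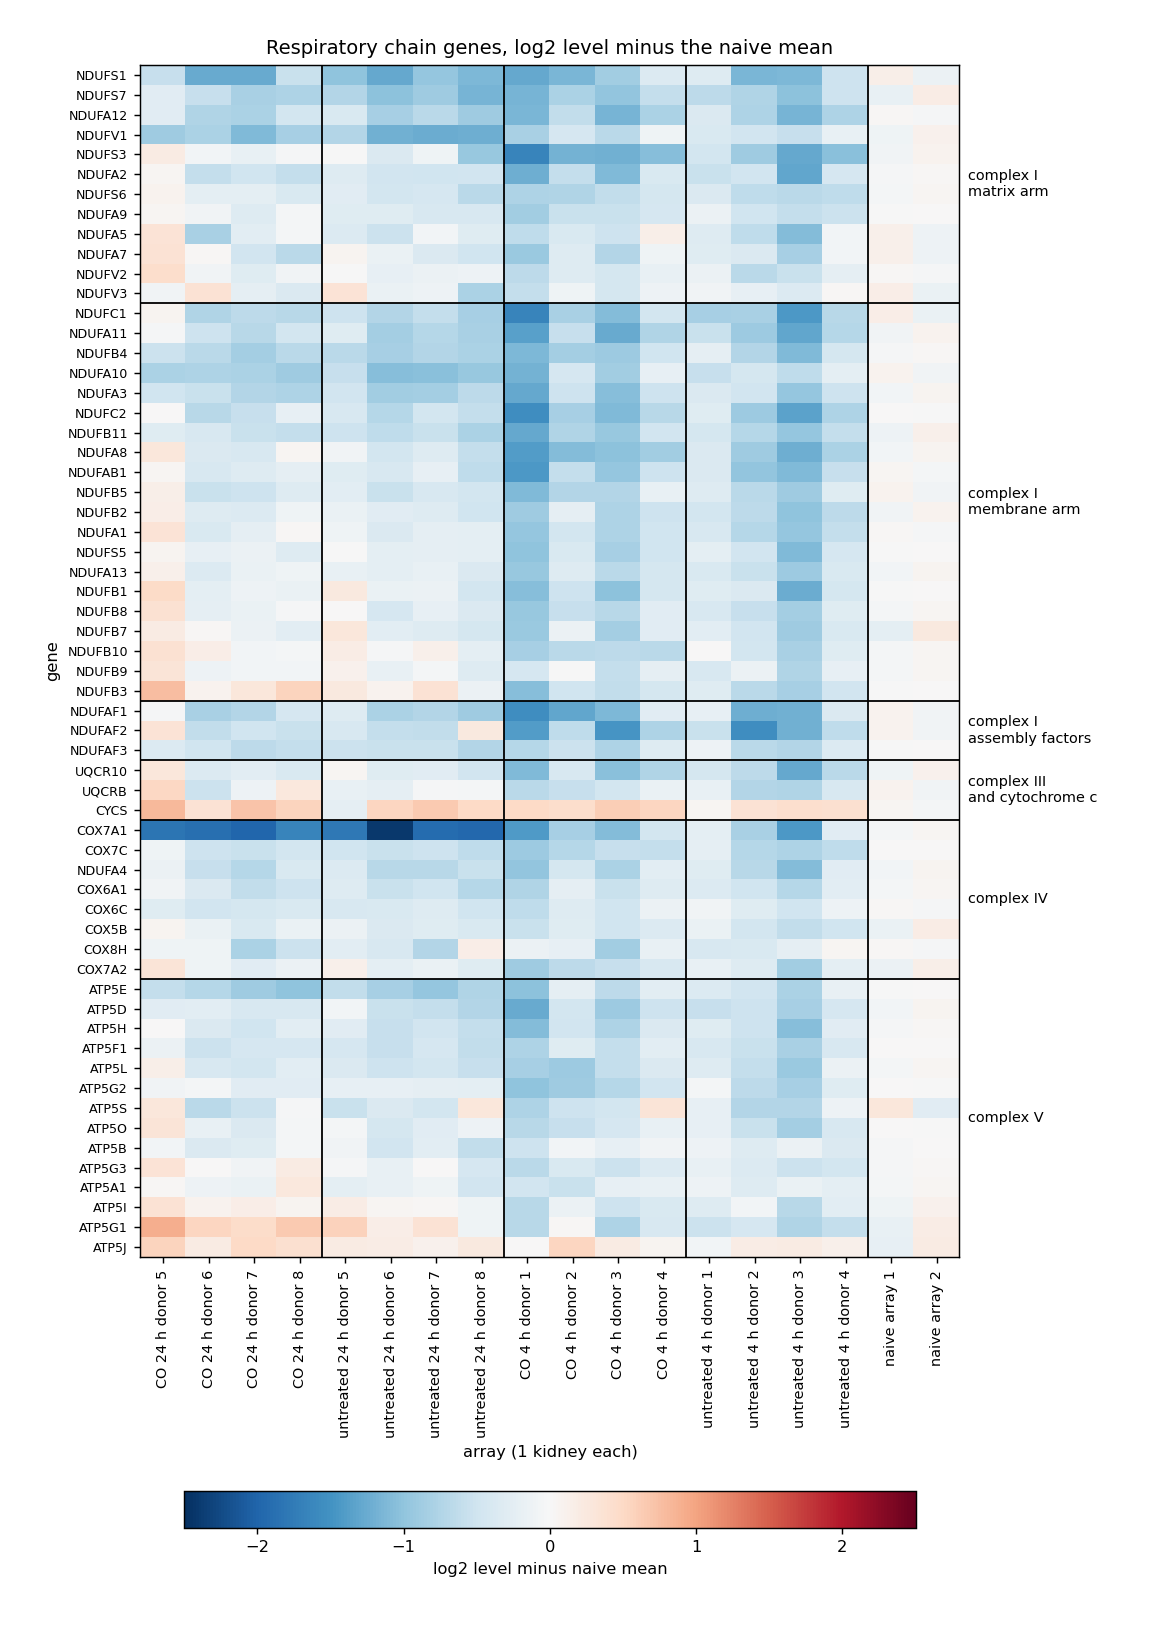
Log2 level minus the naive mean of each of the 60 genes (rows, grouped by complex) on each of the 18 arrays (columns, grouped as CO 24 h, untreated 24 h, CO 4 h, untreated 4 h and naive). Blue is below and red above the naive mean. Most rows are blue across the 4 h arrays and paler at 24 h, COX7A1 is deepest blue at 24 h, and CYCS is red on most transplanted arrays.

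At 24 h with CO, 5 genes fell and 0 rose against naive kidneys, which is 8.33% of the members lower against 5.93% of all probe sets lower and 5.75% higher. They were COX7A1, NDUFV1, NDUFA10, ATP5E and NDUFB4. The median change of the 60 genes was -0.19, against -0.02 for all probe sets. The count was 1 when either naive array was left out and 3 without the CO kidney of donor 7, and the median was -0.344 without the CO kidney of donor 5. With the date groups of the array files as a block, 0 of the 60 and 0 of all probe sets passed, and the median was -0.01.

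At 24 h without CO, 12 genes fell and 0 rose against naive kidneys, or 20% of the members, against 7.77% of all probe sets lower and 6.79% higher. The falls were spread over the matrix arm of complex I (4 of 12), its membrane arm (4 of 20), complex IV (2 of 8), the assembly factors (1 of 3) and complex V (1 of 14). The median change was -0.35, against 0.01 for all probe sets. The count was 3 when naive array 1 was left out, 2 when naive array 2 was, 6 without the kidney of donor 6 and 7 without that of donor 7, and 0 with the date groups as a block, where the median was -0.25. Only 1 of the 24 h arrays, the untreated kidney of donor 5, shares a date group with any naive or 4 h array, so the block separates date from time of sampling through that array alone.

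At 4 h with CO, 28 of the 60 genes fell and 0 rose against naive kidneys, or 46.7%, against 6.72% of all probe sets lower and 6.84% higher. The median change was -0.64, against -0.01 for all probe sets. Those that fell were 12 of 20 in the membrane arm of complex I, 7 of 12 in its matrix arm, 3 of 3 assembly factors, 3 of 14 in complex V, 2 of 8 in complex IV and UQCR10 of complex III. The 8 largest falls were those of NDUFS3, NDUFA8, NDUFAF2, NDUFAF1, NDUFC2, NDUFC1, NDUFA11 and COX7A1, from -1.27 to -0.95. The count depended on the naive arrays and on single kidneys: it was 0 when naive array 1 was left out and 0 when naive array 2 was, 8 without the CO kidney of donor 1 and 12 without that of donor 3. With the date groups as a block it was 17 lower and 1 higher, and within the first date group alone, which holds 1 naive array and the CO kidneys of donors 1, 3 and 4, it was 0 with a median of -0.64.

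At 4 h without CO, 0 of the 60 genes passed limma's threshold against naive kidneys, where 0.563% of all probe sets were called lower and 0.942% higher. At an unadjusted p under 0.05, 42 of the 60 were lower and 0 higher, against 11.2% of all probe sets lower. The untreated 4 h kidneys lay wholly below the naive kidneys for 51 genes, against 15.8% of all probe sets. The median change was -0.54, against -0.03 for all probe sets. The 3 smallest p were those of NDUFS6, NDUFS3 and NDUFS7, with adjusted p of 0.0652, 0.0654 and 0.0669. Without the kidney of donor 1, the array that stood near the naive ones, 23 genes fell and 0 rose. Of all probe sets 6.89% were then lower and 7.05% higher, and the median of the members was -0.60. Those that fell included NDUFS1, NDUFS3, NDUFS7, NDUFA8, NDUFA12, NDUFB4, COX5B and COX7C. Leaving out the array nearest to the naive ones favours such calls. Of the 6 arrays left out 1 at a time, only leaving out that of donor 1 gave any call. Without the untreated kidney of donor 3 the median of the members was -0.422.

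**Figure D2:**
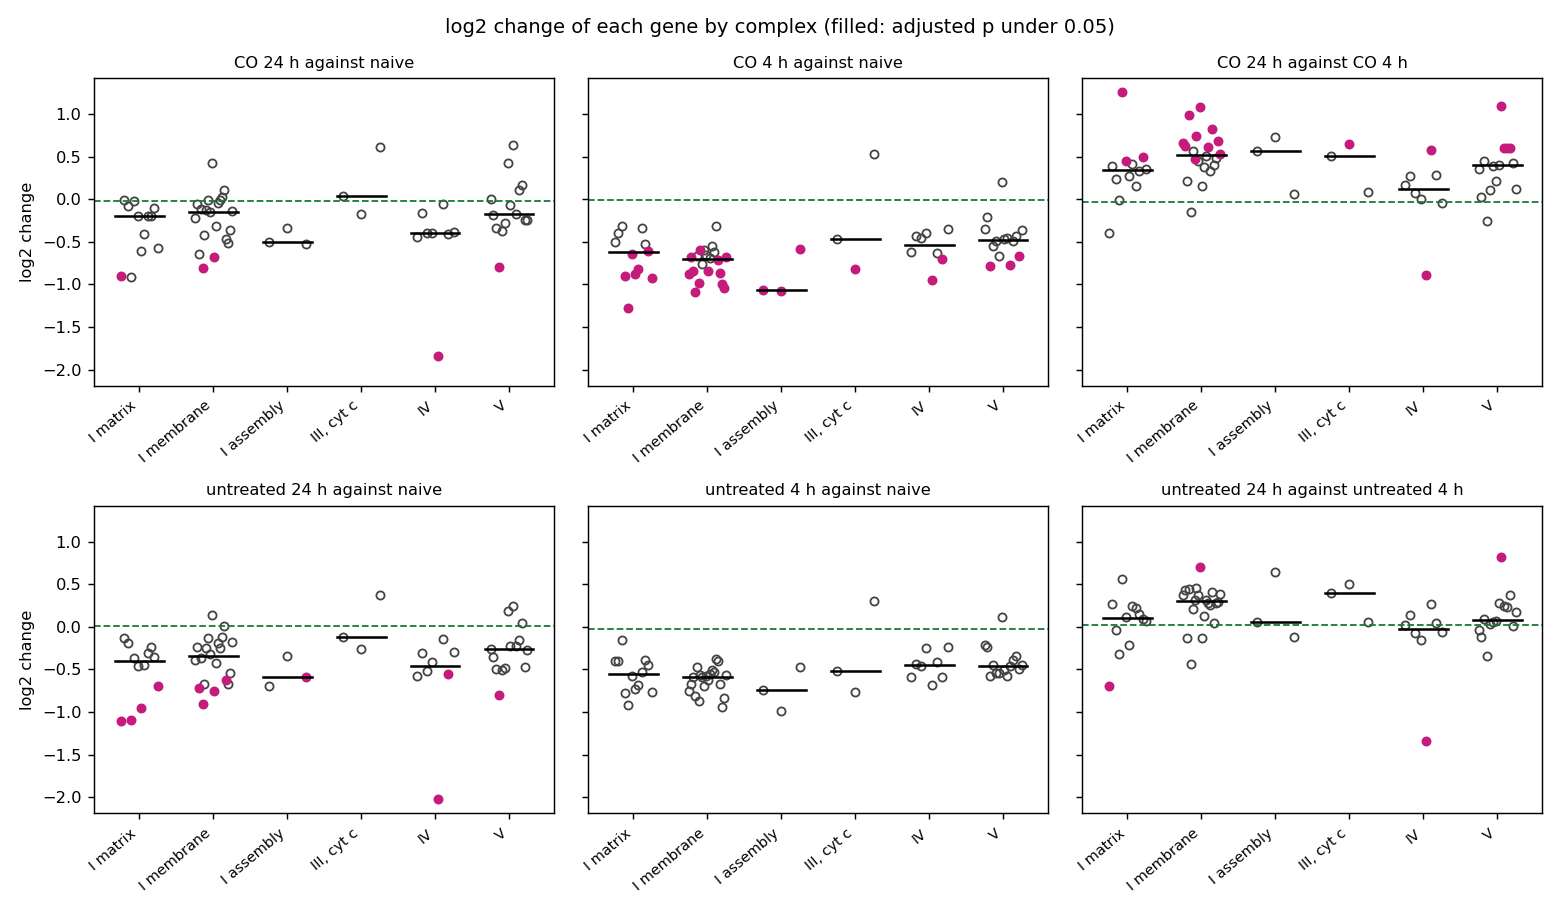
Log2 change (y axis) of each of the 60 genes by complex (x axis) in 6 comparisons, CO groups above and untreated groups below. Filled points passed an adjusted p under 0.05, black bars are medians of each complex, and the dashed line is the median of all probe sets. Nearly all points lie under the dashed line at 4 h, and most lie above it for CO 24 h against CO 4 h.

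Within the matrix arm of complex I, which oxidises NADH, genes differed in the time at which they were lowest. NDUFV1, the subunit that binds the flavin FMN and accepts electrons from NADH, was lowest at 24 h. Its levels were 7.64, 7.72, 7.41 and 7.70 in CO 24 h kidneys and 7.78, 7.32, 7.27 and 7.30 in untreated 24 h kidneys, against 8.42 and 8.62 in naive kidneys. Both 24 h groups lay below the naive kidneys without overlap. It fell by 0.90 ± 0.20 with CO (adjusted p = 0.00794) and by 1.10 ± 0.20 without (adjusted p = 0.00185). At 4 h it stood at 7.72, 8.10, 7.84 and 8.41 in CO kidneys and at 8.14, 8.04, 7.94 and 8.34 in untreated kidneys, which gave adjusted p of 0.0972 and 0.254 against naive.

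NDUFS1, the largest iron-sulfur subunit of this arm, had levels of 7.77, 7.07, 7.08 and 7.78 in CO 24 h kidneys and 7.34, 7.05, 7.38 and 7.21 in untreated 24 h kidneys. It stood at 7.06, 7.20, 7.48 and 8.00 in CO 4 h kidneys and at 8.02, 7.21, 7.22 and 7.82 in untreated 4 h kidneys, against 8.48 and 8.20 in naive kidneys. Every transplanted kidney was below both naive kidneys. The change passed in untreated 24 h kidneys (-1.09 ± 0.29, adjusted p = 0.0185) and CO 4 h kidneys (-0.90 ± 0.29, adjusted p = 0.0486). It missed the threshold in CO 24 h kidneys (-0.91, adjusted p = 0.051) and untreated 4 h kidneys (-0.77, adjusted p = 0.141). Without the untreated 4 h kidney of donor 1, a choice that favours a fall, the latter change passed too (-0.93, limma adjusted p = 0.0433). NDUFS7, which passes electrons on to ubiquinone, likewise fell in untreated 24 h kidneys (-0.95) and CO 4 h kidneys (-0.88), and NDUFA12, an accessory subunit, in the same groups (-0.69 and -0.93).

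NDUFS3, a core subunit of the module that reduces ubiquinone, was lowest at 4 h. Its levels were 8.35, 8.08, 7.96 and 8.12 in CO 24 h kidneys and 8.13, 7.78, 8.04 and 7.20 in untreated 24 h kidneys. They were 6.50, 6.96, 6.95 and 7.09 in CO 4 h kidneys and 7.69, 7.26, 6.86 and 7.11 in untreated 4 h kidneys, against 8.07 and 8.23 in naive kidneys. The CO 4 h kidneys overlapped neither the naive kidneys nor the CO 24 h kidneys. It fell by 1.27 ± 0.25 in CO 4 h kidneys against naive (adjusted p = 0.00752), the largest fall of the 60 there, and rose by 1.25 ± 0.21 in CO 24 h against CO 4 h kidneys (adjusted p = 0.00103), the largest rise. A second probe set of NDUFS3 moved alike (-0.96 and 0.96 for these comparisons), and a further, dimmer one moved the other way (1.71 and -3.13). With the mean of the 3 probe sets neither was called: the change was -0.175 in CO 4 h kidneys against naive (adjusted p = 0.627) and -0.31 in CO 24 h against CO 4 h kidneys (adjusted p = 0.206).

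The membrane arm of complex I, which pumps protons, held the most genes that fell in CO 4 h kidneys. NDUFA8, an accessory subunit, had levels of 6.79, 7.08, 7.15 and 7.30 in CO 4 h kidneys and of 7.82, 7.29, 6.96 and 7.38 in untreated 4 h kidneys, against 8.10 and 8.24 in naive kidneys. It fell by 1.09 ± 0.24 with CO (adjusted p = 0.0103), and the untreated change of -0.81 had an adjusted p of 0.0751. Without the untreated kidney of donor 1, a choice that favours a fall, the untreated change passed too (-0.96, limma adjusted p = 0.00975). At 24 h NDUFA8 stood at 8.45, 7.81, 7.77 and 8.23 in CO kidneys, all above the CO 4 h kidneys. It rose by 0.98 ± 0.19 between these times with CO (adjusted p = 0.00296). NDUFC2, NDUFC1, NDUFA11, NDUFAB1 (the mitochondrial acyl carrier protein), NDUFB11, NDUFA3, NDUFB4 and, of the matrix arm, NDUFA2 fell by similar amounts in CO 4 h kidneys, with changes from -1.05 to -0.82.

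NDUFA10 and NDUFB4, accessory subunits of the membrane arm, remained low at 24 h. NDUFA10 had levels of 7.07, 7.10, 7.09 and 6.98 in CO 24 h kidneys and 7.30, 6.82, 6.83 and 6.93 in untreated 24 h kidneys, against 7.95 and 7.79 in naive kidneys. The groups did not overlap, and it fell by 0.81 ± 0.22 (adjusted p = 0.0241) and 0.91 ± 0.22 (adjusted p = 0.0113). NDUFB4 had levels of 9.26, 9.13, 8.96 and 9.14 in CO 24 h kidneys and 9.13, 8.99, 9.08 and 9.02 in untreated 24 h kidneys, against 9.79 and 9.83 in naive kidneys. It fell in 3 of the 4 transplanted groups (-0.68, -0.75 and -0.84 in CO 24 h, untreated 24 h and CO 4 h kidneys). In untreated 4 h kidneys it missed the threshold (-0.62, adjusted p = 0.104). Without the kidney of donor 1, a choice that favours a fall, NDUFB4 passed there (-0.75, limma adjusted p = 0.0171).

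NDUFB3, another accessory subunit of this arm, was highest at 24 h. Its levels were 8.82, 8.12, 8.31 and 8.59 in CO 24 h kidneys, 8.29, 8.12, 8.40 and 7.89 in untreated 24 h kidneys, 6.98, 7.53, 7.42 and 7.59 in CO 4 h kidneys and 7.73, 7.37, 7.21 and 7.57 in untreated 4 h kidneys, against 8.03 and 8.04 in naive kidneys. All 24 h kidneys were above all 4 h kidneys. It rose by 1.08 ± 0.18 in CO 24 h against CO 4 h kidneys (adjusted p = 0.00103) and by 0.71 ± 0.18 in untreated 24 h against untreated 4 h kidneys (adjusted p = 0.0184), and its second probe set moved alike (1.20 and 0.76). Against naive kidneys it passed in none of the 4 comparisons.

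The assembly factors NDUFAF1, NDUFAF2 and NDUFAF3, which help build complex I without remaining in it, all fell in CO 4 h kidneys. NDUFAF1 had levels of 3.53, 3.79, 3.97 and 4.80 there and of 4.89, 3.87, 3.88 and 4.72 in untreated 4 h kidneys, against 5.18 and 5.00 in naive kidneys. Its fall in CO 4 h kidneys was -1.07 ± 0.34 (adjusted p = 0.0485), that of NDUFAF2 was -1.07 (adjusted p = 0.0466) and that of NDUFAF3 was -0.59 (adjusted p = 0.0351). NDUFAF3 also fell in untreated 24 h kidneys (-0.59, adjusted p = 0.0314).

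Of complex III, UQCR10, a small accessory subunit, had levels of 9.72, 9.11, 9.18 and 9.06 in CO 24 h kidneys and of 8.34, 9.05, 8.40 and 8.70 in CO 4 h kidneys, against 9.34 and 9.55 in naive kidneys. It fell by 0.82 ± 0.25 in CO 4 h kidneys against naive (adjusted p = 0.0399) and rose by 0.65 ± 0.20 in CO 24 h against CO 4 h kidneys (adjusted p = 0.0382), where the groups did not overlap but came close. UQCRB, which contributes to ubiquinone binding, passed in none of these comparisons, with changes of 0.03, -0.12, -0.47 and -0.52 in CO 24 h, untreated 24 h, CO 4 h and untreated 4 h kidneys against naive.

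CYCS, cytochrome c, had estimates above naive in all 4 transplanted groups. Its levels were 7.28, 6.82, 7.18 and 7.02 in CO 24 h kidneys, 6.25, 7.00, 7.12 and 6.97 in untreated 24 h kidneys, 6.96, 6.91, 7.09 and 7.01 in CO 4 h kidneys and 6.52, 6.82, 6.89 and 6.87 in untreated 4 h kidneys, against 6.51 and 6.42 in naive kidneys. All transplanted kidneys but the untreated 24 h kidney of donor 5 lay above both naive kidneys. Its changes against naive were 0.61, 0.37, 0.53 and 0.31 in the same order, with adjusted p of 0.064, 0.262, 0.0978 and 0.43, so none passed. ATP5J was likewise above 0 in all 4. It is coupling factor 6 of the ATP synthase's peripheral stalk, and its changes (0.42, 0.18, 0.21 and 0.12) passed in none either.

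**Figure D3:**
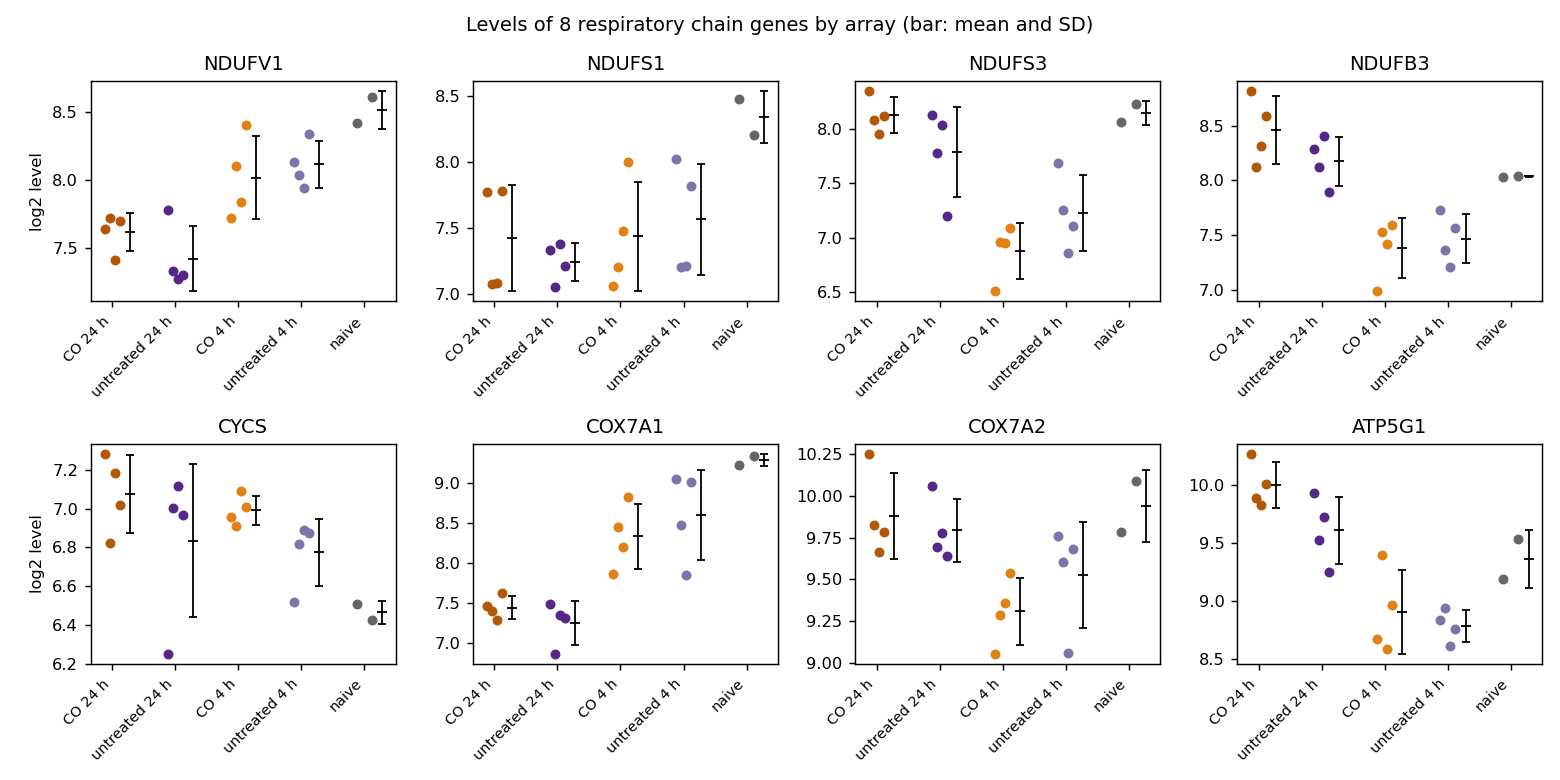
Log2 level (y axis) of NDUFV1, NDUFS1, NDUFS3, NDUFB3, CYCS, COX7A1, COX7A2 and ATP5G1 in each kidney by group (x axis), with the mean and SD of each group in black. NDUFV1 and COX7A1 are lowest at 24 h, NDUFS3, NDUFB3 and ATP5G1 are lowest at 4 h, and CYCS is lowest in the naive kidneys apart from 1 untreated 24 h kidney.

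In complex IV, COX7A1, the heart and muscle isoform of subunit 7A, had the largest change of all 60 genes in the comparisons with naive kidneys. Its levels were 7.46, 7.40, 7.29 and 7.63 in CO 24 h kidneys and 7.49, 6.87, 7.35 and 7.32 in untreated 24 h kidneys. They were 7.86, 8.45, 8.19 and 8.82 in CO 4 h kidneys and 9.04, 8.48, 7.85 and 9.01 in untreated 4 h kidneys, against 9.23 and 9.34 in naive kidneys. Every 24 h kidney was below every 4 h kidney, and every 4 h kidney below both naive kidneys.

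COX7A1 fell 3.57-fold in CO 24 h kidneys (-1.84 ± 0.30, adjusted p = 0.00174) and 4.07-fold in untreated 24 h kidneys (-2.03 ± 0.30, adjusted p = 0.000559) against naive. It fell in CO 4 h kidneys too (-0.95 ± 0.30, adjusted p = 0.0438), while the change of -0.69 in untreated 4 h kidneys had an adjusted p of 0.199. It was the only member to fall in CO 24 h against CO 4 h kidneys (-0.89 ± 0.24, adjusted p = 0.0192), and fell in untreated 24 h against untreated 4 h kidneys (-1.34 ± 0.24, adjusted p = 0.00257). Of 3 measured markers of skeletal and heart muscle, the mean level was 1.53 to 1.68 in CO 24 h kidneys, 1.39 to 1.78 in untreated 24 h kidneys, 1.70 to 2.58 in CO 4 h kidneys, 1.70 to 2.01 in untreated 4 h kidneys and 1.57 to 1.92 in naive kidneys, about the background of 1.62. Of these markers, CKM, the muscle creatine kinase, fell in CO 24 h against CO 4 h kidneys (-0.90).

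COX7A2, the liver-type isoform of the same subunit, did not share this course. Its levels were 10.25, 9.82, 9.66 and 9.79 in CO 24 h kidneys and 9.06, 9.29, 9.36 and 9.54 in CO 4 h kidneys, against 9.78 and 10.09 in naive kidneys. It rose by 0.57 ± 0.17 in CO 24 h against CO 4 h kidneys (adjusted p = 0.0319), without overlap, and against naive its changes of -0.06, -0.14, -0.63 and -0.41 in CO 24 h, untreated 24 h, CO 4 h and untreated 4 h kidneys did not pass.

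COX7C, another small subunit of complex IV, fell in untreated 24 h kidneys (-0.55, adjusted p = 0.0355) and CO 4 h kidneys (-0.70, adjusted p = 0.0145). COX5B, COX6A1, COX6C, COX8H and NDUFA4, a subunit named for complex I and now assigned to complex IV, passed in no comparison with all arrays. Their changes against naive lay between -0.62 and -0.16. Without the untreated 4 h kidney of donor 1, a choice that favours a fall, COX5B fell in untreated 4 h kidneys (-0.53, limma adjusted p = 0.0364).

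In complex V, ATP5A1 and ATP5B, subunits of the catalytic head, passed in no comparison. ATP5A1, the alpha subunit, had levels of 11.14, 10.99, 10.94 and 11.38 in CO 24 h kidneys, 10.86, 10.92, 11.00 and 10.64 in untreated 24 h kidneys, 10.64, 10.56, 10.91 and 10.93 in CO 4 h kidneys and 10.98, 10.78, 10.95 and 10.86 in untreated 4 h kidneys, against 11.07 and 11.15 in naive kidneys. The transplanted groups lay at most 0.35 below the naive mean. For ATP5B, the beta subunit, the changes against naive were -0.19, -0.36, -0.21 and -0.24 in CO 24 h, untreated 24 h, CO 4 h and untreated 4 h kidneys. For ATP5O, the OSCP subunit of the peripheral stalk, they were -0.07, -0.22, -0.47 and -0.51, and none passed.

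ATP5E, the epsilon subunit of the central stalk, fell at 24 h. Its levels were 10.43, 10.30, 10.14 and 10.02 in CO 24 h kidneys and 10.40, 10.19, 10.06 and 10.26 in untreated 24 h kidneys, against 11.01 and 11.03 in naive kidneys, without overlap. The changes were -0.80 ± 0.21 in each group, with adjusted p of 0.0235 with CO and 0.0195 without. At 4 h ATP5E had means of 10.48 in CO and 10.57 in untreated kidneys, against 11.02 in naive kidneys, and neither change passed. Its changes from 4 h to 24 h (-0.25 with CO and -0.34 without) did not pass either. In CO 4 h kidneys ATP5D, the delta subunit (-0.78), ATP5G2 (-0.77) and ATP5L, membrane subunit g (-0.67), fell.

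ATP5G1, ATP5G2 and ATP5G3 encode the same mature protein, subunit c of the ring that the protons turn, and all 3 rose in CO 24 h against CO 4 h kidneys. ATP5G1 had levels of 10.27, 9.89, 9.83 and 10.01 in CO 24 h kidneys, 9.94, 9.53, 9.72 and 9.25 in untreated 24 h kidneys, 8.67, 9.39, 8.59 and 8.97 in CO 4 h kidneys and 8.83, 8.94, 8.61 and 8.76 in untreated 4 h kidneys, against 9.19 and 9.54 in naive kidneys. The 24 h and 4 h kidneys of each treatment did not overlap. It rose by 1.10 ± 0.18 in CO 24 h against CO 4 h kidneys (adjusted p = 0.00116), where ATP5G2 rose by 0.60 and ATP5G3 by 0.60, and by 0.82 ± 0.18 in untreated 24 h against untreated 4 h kidneys (adjusted p = 0.00953). Of the 3, only ATP5G1 passed in untreated kidneys, and the difference between treatments of its change over time (0.27 ± 0.26) did not pass (adjusted p = 0.996).

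Between 4 h and 24 h, 19 genes rose and 1 fell in CO kidneys, or 31.7% higher, against 10.2% of all probe sets higher and 7.44% lower. The median change was 0.40, against -0.04 for all probe sets. The largest rises were those of NDUFS3, ATP5G1, NDUFB3, NDUFA8, NDUFB10, NDUFB1, NDUFC2 and NDUFAB1, from 1.25 to 0.65. By complex, 10 of 20 membrane arm genes, 4 of 14 complex V genes, 3 of 12 matrix arm genes, UQCR10 and COX7A2 rose. The count of 20 was 8 without the CO 4 h kidney of donor 1, 12 without that of donor 3, 10 without the CO 24 h kidney of donor 5 and 13 without that of donor 7, where COX7A1 no longer passed. With the date groups as a block it was 0, as it was for all probe sets, with a median of 0.61.

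In untreated kidneys, 2 genes rose between these times (ATP5G1 and NDUFB3) and 2 fell (COX7A1 and, by 0.70 ± 0.16, NDUFV1), or 3.33% each way, against 5.15% of all probe sets higher and 4.57% lower. The median change was 0.14, against 0.02 for all probe sets. Without the untreated 4 h kidney of donor 1, 5 rose and 2 fell, against 6.48% of all probe sets higher and 5.72% lower, with a median of 0.23. The median was 0.068 without the untreated 4 h kidney of donor 3 and 0.081 without the untreated 24 h kidney of donor 5. With the date groups as a block 0 passed, and the median was 0.29.

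**Figure D4:**
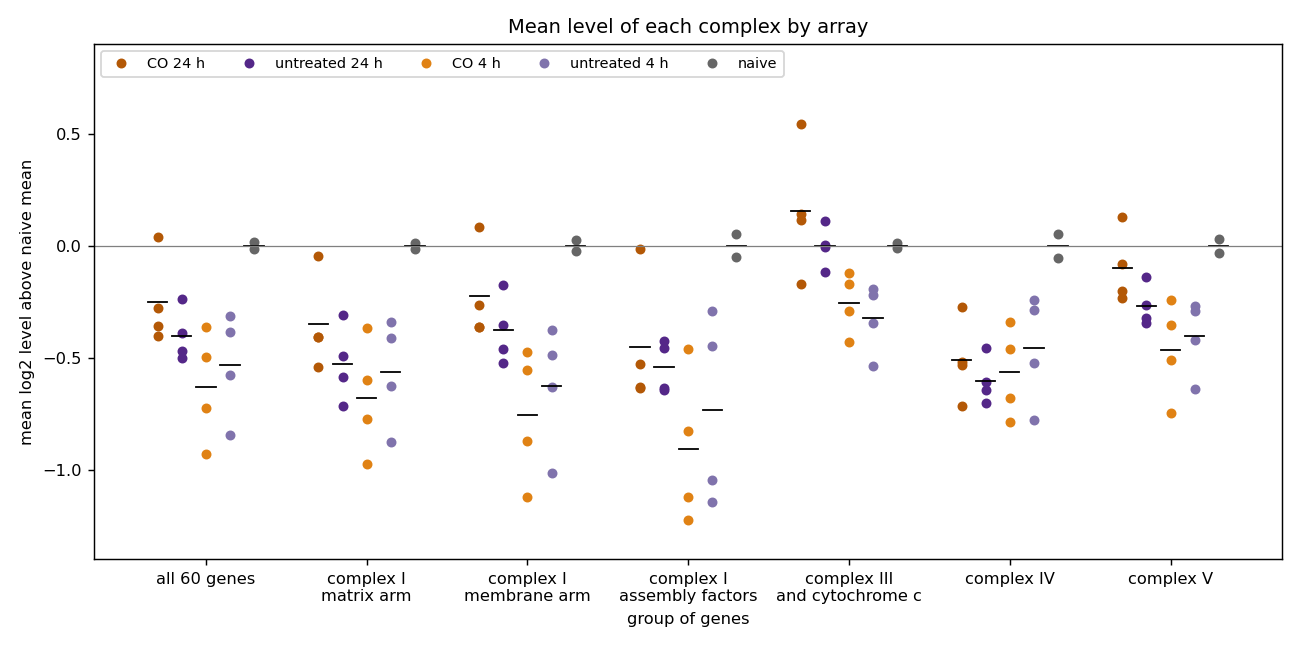
Mean log2 level above the naive mean (y axis) of all 60 genes and of each complex (x axis), 1 point for each array, with black bars for group means. The naive arrays lie at 0. The 4 h arrays lie lowest in the membrane arm and the assembly factors of complex I, and the CO 24 h and CO 4 h means of complex IV lie close together.

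Whether CO altered these genes was asked by setting CO against untreated kidneys at each time. At 24 h, 0 of the 60 genes passed limma's threshold, as did 0% of all probe sets, and 1 gene, ATP5G1 (0.39 ± 0.18), had an unadjusted p under 0.05, against 1.17% of all probe sets. The next smallest p were those of NDUFS6 (0.27) and ATP5G3 (0.27). The median of the 60 changes was 0.14, against -0.01 for all probe sets, and 58 of 60 estimates were above 0. Without the CO kidney of donor 5 this median was 0.049. At 4 h, 0 of the 60 and 0% of all probe sets passed, and 0 had an unadjusted p under 0.05, against 3.28% of all probe sets. The median there was -0.11, against 0.02 for all probe sets, with 48 of 60 estimates below 0. The smallest p at 4 h were those of ATP5G2 (-0.31), NDUFB10 (-0.31) and NDUFS3 (-0.35, or 0.176 with the mean of its 3 probe sets).

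The 95% confidence intervals of limma for single genes reached from -0.58 to 0.78 at 24 h and from -0.91 to 0.70 at 4 h, with 4 kidneys a group. The change with CO at 24 h minus that at 4 h had a median of 0.26, against -0.03 for all probe sets, and 0 of the 60 passed, as did 0% of all probe sets. This median was 0.153 without the CO kidney of donor 5, 0.142 without the CO kidney of donor 1 and 0.164 without the untreated kidney of donor 1. At an unadjusted p under 0.05 by limma there were 3 genes, NDUFS3 (0.69), NDUFA9 (0.41) and ATP5A1 (0.39), against 2.55% of all probe sets. With the mean of its probe sets, the value of NDUFS3 was 0.023.

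Both kidneys of a donor were also set side by side. The CO and untreated arrays of donor 5 are in different date groups, as are those of donor 6. In these donors, CO and date group cannot be told apart. The median CO minus untreated difference of the 60 genes was 0.28, 0.11, -0.03 and 0.24 in donors 5, 6, 7 and 8 at 24 h, and -0.63, 0.06, 0.16 and 0.02 in donors 1, 2, 3 and 4 at 4 h. The CO kidney was higher for 53, 43, 25 and 51 of the 60 genes in donors 5, 6, 7 and 8. These are 88.3%, 71.7%, 41.7% and 85%, against 53.2%, 48.4%, 49.6% and 50.1% of all probe sets. It was higher for 3, 35, 47 and 34 in donors 1, 2, 3 and 4. These are 5%, 58.3%, 78.3% and 56.7%, against 52.7%, 55.4%, 48.1% and 47.2% of all probe sets. Donor 1, whose untreated kidney stood near the naive kidneys, had the only median below 0 at 4 h. Without its CO kidney the median change at 4 h was -0.004, and without its untreated kidney it was -0.032. It was -0.068 without the CO kidney of donor 3, -0.055 without the untreated kidney of donor 4, -0.215 without the untreated kidney of donor 3 and -0.2 without the CO kidney of donor 4. At 24 h, 10 genes were higher with CO in 4 of 4 donors (16.7% of the members, against 4.84% of all probe sets), among them ATP5G1, NDUFS6, NDUFS7 and NDUFA9. At 4 h, 0 genes were lower with CO in 4 of 4 donors, against 5.87% of all probe sets.

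**Figure D5:**
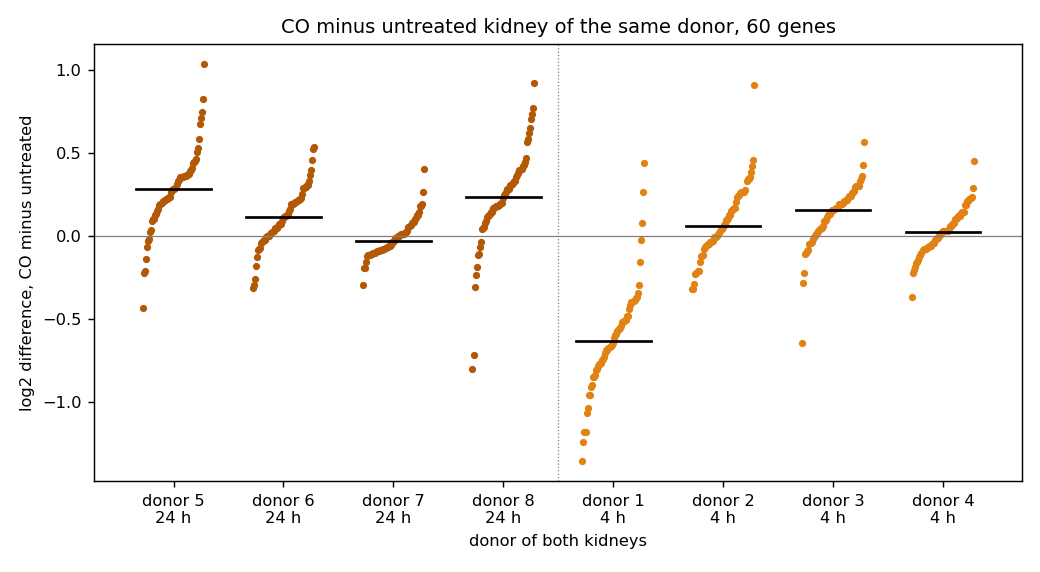
Log2 difference (y axis) of each of the 60 genes between the CO kidney and the untreated kidney of the same donor (x axis), donors 5 to 8 at 24 h and donors 1 to 4 at 4 h, sorted within donor, with the median as a black bar. Donor 1 lies apart with nearly all genes below 0, and donors 5 and 8 lie mostly above 0.

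Other mitochondrial genes were read from lists. Against naive, 5.93%, 7.77%, 6.72% and 0.563% of all probe sets were called lower in CO 24 h, untreated 24 h, CO 4 h and untreated 4 h kidneys. Called higher were 5.75%, 6.79%, 6.84% and 0.942%. These shares are the scale for the lists and cell type markers below. Complex II, succinate dehydrogenase, joins the citric acid cycle to the chain, and all 4 of its subunits were measured. Of these, 3 fell in CO 24 h kidneys, 3 in untreated 24 h kidneys, 4 in CO 4 h kidneys and 1 in untreated 4 h kidneys, with medians of -0.83, -1.12, -0.84 and -0.68 against naive. SDHC, which anchors it in the membrane, changed most (-1.78, -2.02, -1.30 and -1.07, all called). In untreated 24 h against untreated 4 h kidneys SDHC (-0.94) and SDHA, the flavin subunit (-0.75), fell, and in CO 24 h against CO 4 h kidneys the smallest adjusted p was 0.0692, that of SDHD (0.50), with a median of -0.06.

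Of 17 measured assembly factors and partners of the complexes, 3, 5, 7 and 1 fell and 0 rose against naive in CO 24 h, untreated 24 h, CO 4 h and untreated 4 h kidneys, with medians of -0.21, -0.36, -0.47 and -0.44 (all probe sets: -0.02, 0.01, -0.01 and -0.03). FOXRED1, an assembly factor of complex I, fell in the first 3 of these groups (-1.17, -1.32 and -0.83). BCS1L, which inserts the iron-sulfur protein into complex III, rose in CO 24 h against CO 4 h kidneys (1.06) and in untreated 24 h against untreated 4 h kidneys (0.75). Of 10 measured genes of other electron entry and ubiquinone synthesis, 4, 5, 5 and 1 fell against naive in the same order, with medians of -0.51, -0.69, -0.73 and -0.49. COQ9, needed for ubiquinone synthesis, fell in all 4 groups (-1.19, -1.47, -1.46 and -1.19).

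Of 18 measured genes of the citric acid cycle and pyruvate dehydrogenase, 2, 5, 5 and 1 fell against naive in the same order, and 0 rose, with medians of -0.34, -0.52, -0.51 and -0.39. PDHA1, a subunit of pyruvate dehydrogenase, fell at 24 h (-1.19 with CO and -1.45 without). Of 17 measured carriers and channels of the mitochondrial membranes, 3, 4, 4 and 0 fell and 0 rose, with medians of -0.14, -0.29, -0.29 and -0.28. SLC25A1, the citrate carrier, fell in the first 3 groups (-1.32, -1.78 and -1.24).

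Of 8 measured regulators of mitochondrial biogenesis, 2 rose and 1 fell in CO 24 h kidneys, 2 rose and 1 fell in untreated 24 h kidneys, 1 rose and 1 fell in CO 4 h kidneys and 1 rose in untreated 4 h kidneys. PPRC1, a coactivator related to PGC-1 alpha, rose in all 4 groups (2.61, 2.59, 2.87 and 2.45 in the same order, with adjusted p of 0.00157, 0.000969, 0.00267 and 0.0207). SIRT3, a mitochondrial deacetylase, fell in the first 3 (-1.21, -1.45 and -1.19). SSBP1, which binds single-stranded mitochondrial DNA, rose at 24 h against naive (0.88 with CO and 0.91 without).

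Markers of the proximal tubule also differed between the groups. The mean level of the 7 measured markers was 6.58 to 7.82 in CO 24 h kidneys, 5.28 to 6.94 in untreated 24 h kidneys, 7.86 to 9.39 in CO 4 h kidneys and 8.81 to 9.77 in untreated 4 h kidneys, against 10.02 and 10.11 in naive kidneys. Of the 7, 6 fell in CO 24 h kidneys, 7 in untreated 24 h kidneys, 1 in CO 4 h kidneys and 0 in untreated 4 h kidneys, with medians of -3.38, -3.83, -1.36 and -0.75, and 0 were below background. MIOX, an enzyme of inositol breakdown, and DPYS, of pyrimidine breakdown, fell at 24 h (-3.87 and -4.25 with CO, -4.27 and -4.96 without). The markers were thus lowest at 24 h, while the respiratory chain genes as a group were lowest at 4 h, and the part of the markers in these results was not tested.

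Of the other cell types, 12 leukocyte markers had a mean level of 3.30 to 5.14 in CO 24 h kidneys, 3.64 to 5.16 in untreated 24 h kidneys, 3.30 to 3.52 in CO 4 h kidneys and 3.72 to 4.71 in untreated 4 h kidneys, against 2.69 and 3.26 in naive kidneys. Of the 12, 2 rose in CO 24 h, 4 in untreated 24 h, 0 in CO 4 h and 1 in untreated 4 h kidneys, with medians of 1.51, 1.94, 0.27 and 0.77 against naive, and 0 fell. CTSS, a protease of phagocytes, rose in CO 24 h, untreated 24 h and untreated 4 h kidneys (2.13, 2.68 and 1.30), and CD163, a scavenger receptor of macrophages, in CO 24 h and untreated 24 h kidneys (2.95 and 3.21). IL2RG, a chain of interleukin receptors (2.73), and CD3D, of the T cell receptor complex (1.67), rose in untreated 24 h kidneys. The part of these cells in the results was not tested. Among 6 endothelial and 6 stromal markers, at most 1 of each list was called in any comparison. Of 3 loop and distal nephron markers, EGF fell at 24 h (-3.72 with CO and -4.22 without), and ATP6V0A4, a proton pump subunit of intercalated cells, fell at 4 h (-1.97 with CO and -2.16 without). KCNJ1, a potassium channel of these segments, rose in CO 24 h against CO 4 h kidneys (1.64). The medians of the 3 against naive were -1.14, -0.99, -1.85 and -1.96 in CO 24 h, untreated 24 h, CO 4 h and untreated 4 h kidneys. Signals of 2 housekeeping transcripts on the array gave 3' minus 5' differences of 1.20 to 2.79 for actin and 0.91 to 2.28 for GAPDH. The highest values were on CO 24 h arrays. For actin they were 2.51, 1.22, 2.18 and 2.79 on CO 24 h arrays of donors 5, 6, 7 and 8. On the untreated 24 h arrays of the same donors they were 1.20, 1.84, 2.27 and 1.74. The part of these values in the CO minus untreated differences was not tested.

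Probe sets of the same gene did not always move alike among the 12 members that had several. A second probe set of NDUFA1 changed by -2.93 in untreated 24 h kidneys against naive, where the brightest changed by -0.23. Both dimmer probe sets of ATP5L changed by -2.22 and -2.28 there, where the brightest changed by -0.47, and that of COX7C by -1.35 beside -0.55. Of the probe sets used, 57 are marked by the array's design as unique to a transcript, 1 as shared by transcripts of a gene and 2 as possibly shared between genes.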

How the data were processed

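Per the submitters' processing notes, the authors summarised the arrays with RMA, and the deposited values are log2 levels per probe set. The version, settings and genome build are not given in the sources used here. The table holds 24123 probe sets. Without its 124 controls, 23999 were tested, with no filter. Symbols came from the platform annotation, which gives 10069 probe sets 1 symbol.

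A linear model of the 5 groups over all 18 arrays was fitted with lmFit and eBayes of limma 3.58.1 (R 4.3.3, two-sided tests, no block). The number of arrays limits the precision. The labels do not give the recipients, and naive kidneys have 2 arrays. A list is described by counts and medians, with no test of its own.

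The members, gene lists and named genes were chosen with earlier results of these data known. Named genes are up to 8 called rises and falls per comparison, or the 3 smallest p where under 5 were called, 14 measured core members, and up to 3 called genes of each other list. The second probe sets, NDUFS7, NDUFA12, UQCRB, ATP5J, CD3D and the 10 genes higher with CO in 4 of 4 donors were chosen after their values were seen.

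Date groups were read from the dates in the array file names. The labels pair CO and untreated kidneys by donor. After removal of group means, partner arrays correlated by -0.20 to 0.57, above 0.1 in 6 of 8 donors. Alternatives were the variance model, a filter on dim probe sets, normalisation, array weights, date group or donor as a block, fewer groups, the mean of all probe sets of a gene and single arrays left out (statmod 1.5.0). The code was tested on simulated data. Python 3.11.15 with matplotlib 3.10.9 drew the figures.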

Additional observations from a re-analysis of the deposited data

Results flagged for a closer look

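NDUFV1, the FMN-binding subunit of complex I, had a level of 7.78 in the untreated 24 h kidney of donor 5, where the other 3 untreated 24 h kidneys lay between 7.27 and 7.32. The gap was 0.894 of the range of the group, above Dixon's 95% critical value for 4 samples. It was 1 of 92 sets of 4 arrays examined, and chance gives such a gap in about 1 in 20 sets. This array is the only 24 h array in a date group that also holds naive and 4 h arrays. Without it, 10 members fell and 1 rose in untreated 24 h kidneys against naive.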

How the results depend on the processing

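Counts of called genes depended on the setting more than the medians did. Where no share of all probe sets is given, the count alone does not tell fewer calls among the members from fewer calls on the whole array. With array weights, 18 genes passed in CO 24 h (15 lower and 3 higher), 24 in untreated 24 h (all lower), 51 in CO 4 h (50 lower) and 42 in untreated 4 h kidneys (all lower) against naive, or 30%, 40%, 85% and 70% of the members, against 25.9%, 32.3%, 29.3% and 19.8% of all probe sets. In untreated 24 h against untreated 4 h kidneys 15 passed, or 25%, against 20.7% of all probe sets. With the date groups as a block, 18 passed in CO 4 h kidneys against naive, and 0 in both 24 h groups against naive and in both comparisons of 24 h with 4 h, where the median for CO kidneys was 0.614. Within the first date group, 0 passed in CO 4 h kidneys against naive, and CO against untreated kidneys had a median of -0.17 at 4 h. Within the third, this median was 0.25 at 24 h. That group holds CO kidneys of donors 5, 7 and 8 and untreated kidneys of donors 6, 7 and 8, so not all its donors are paired. In fits of the compared groups alone, 12 passed in CO 4 h kidneys against naive and 12 in CO 24 h against CO 4 h kidneys. With each array centred on its median, 8 passed in CO 24 h kidneys against naive and 12 in CO 24 h against CO 4 h kidneys. Without dim probe sets, 1 passed in untreated 4 h and 8 in CO 24 h kidneys against naive, and with the mean of all probe sets of a gene, 8 in CO 24 h kidneys. The cause was not tested, save that a fit of fewer arrays has fewer degrees of freedom.

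Leaving out 1 array at a time gave 1 to 6 calls in CO 24 h, 2 to 11 in untreated 24 h, 0 to 39 in CO 4 h and 0 to 23 in untreated 4 h kidneys against naive, 8 to 24 in CO 24 h against CO 4 h kidneys, 3 to 7 in untreated 24 h against untreated 4 h kidneys, and 0 each time for CO against untreated kidneys and for the difference between times. With the donor as a replicate block, the counts were 5 in CO 24 h, 13 in untreated 24 h, 28 in CO 4 h and 0 in untreated 4 h kidneys against naive, 20 and 4 in CO and untreated kidneys at 24 h against 4 h, and 0 for CO against untreated kidneys, so this pairing changed no count by over 1.5 times.

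A change of direction was counted only for values that passed in the main fit or in the alternative. Values that passed in neither could change direction and still count as kept. Of 2790 values of single genes under these alternatives, 2582 kept their side of the threshold, 156 no longer passed, 51 newly passed and 1 reversed. That was NDUFS3 in CO 24 h against CO 4 h kidneys, at -0.308 (adjusted p = 0.206) with the mean of its 3 probe sets, against 1.253 with the brightest, since 1 probe set moved the other way. With 2 naive arrays, comparisons with naive rest on few values.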
